A study of Drosophila melanogaster with 6 samples.

Results

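The vacuolar proton pump (V-ATPase) genes of Drosophila were examined in RNA sequencing libraries from dissected body wall muscle and cuticle of mid L3 larvae, the last larval stage. Members were all genes of the count table whose FlyBase symbol starts with Vha. Of the 33 such genes in the annotation, 29 had a row under their current identifier among the 17477 genes of the table, and the other 4 (Vha26, Vha13, VhaAC39-1 and Vha44, which encode subunits E, G, d and C) were not analysed here. The table also holds 272 identifiers without a symbol, and rows of these 4 genes may be among them. The control group was 3 libraries from w1118 larvae and the exercised group was 3 libraries from OK6-Gal4bc > CsChrimbc larvae, which express the red light-gated channel CsChrimson under a motor neuron driver. Larvae of both groups were of mixed sex, were fed all-trans retinal, the cofactor of the channel, and received the same 2 h of pulsed light. Light made the muscles of the exercised group contract, and the bc in the genotype marks transgenic lines that were backcrossed to the w1118 stock. Genotype and exercise thus differed together and cannot be told apart, and the OK6 driver is also active in some neurons other than motor neurons.

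The V-ATPase is a rotary machine in the membranes of lysosomes, endosomes and secretory vesicles, and in the plasma membrane of some epithelia. Its V1 sector lies in the cytosol and splits ATP at subunit A, and the turning shaft drives a ring of proteolipids in the membrane sector V0, where protons pass along subunit a. The acidity it makes is needed for degradation in lysosomes, for loading of synaptic vesicles and, in insect Malpighian tubules, for fluid secretion. Many Drosophila subunits have several paralogs, some expressed broadly and others in few tissues, testis among them.

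Library totals lay between 19625425 and 23953341 counts, and 9127 genes passed the low-count filter and were tested with edgeR's quasi-likelihood test. Levels are given as CPM, counts scaled to the TMM-corrected library total, and levels of different genes are compared only as CPM per kilobase of exon. Markers of muscle, the labelled tissue, summed to 117300 to 133200 CPM in control and 121200 to 130300 CPM in exercised libraries. The sum of the fat body markers set control replicate 3 apart from the other controls. It was 3501 CPM there, 514.9 and 402.5 CPM in control replicates 1 and 2 and 3250 to 4223 CPM in exercised libraries. In bulk samples such as these, more cells of a type and more RNA per cell cannot be told apart.

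Subunits c, c'' and F were expressed almost wholly from a single paralog, while A, D, a and e were divided between paralogs. In exercised larvae 6 Vha genes rose, by 21.7 to 47.3%. They were Vha100-1, Vha14-1, Vha36-1, Vha16-1, Vha68-2 and Vha55, which hold the catalytic headpiece (A and B), the rotor shaft (D and F), the proteolipid ring (c) and a proton channel subunit (a). Of the 29 Vha genes, 15 passed the filter and were tested, and the other 14 had at most 27 counts in any library. The 6 that rose were 40% of the 15 tested, where 10.3% of all tested genes were higher at an adjusted p under 0.05 (18.8% were higher or lower). No tested Vha gene passed as lower in edgeR, DESeq2 or limma-voom, where 8.52% of all tested genes were lower in edgeR. At an unadjusted p under 0.05, 10 of the 15 were higher and 0 lower, where 17% of all tested genes were higher and 16.2% lower.

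The log2 fold changes of the 15 tested Vha genes lay between 0.03 and 0.56, all above 0 with TMM factors but not with upper-quartile factors, under which Vha100-2, Vha68-1 and VhaM9.7-c were just below 0. The median of the 15 was 0.26. Of all tested genes 47.9% were above 0, and their median was -0.02. In 10 of the 15 every exercised library was above every control library (66.7%, where this held for 19.8% of all tested genes), and in the other 5 the groups overlapped. Many members also had an order among libraries in common, but the share of all tested genes with that order was not counted. It is therefore not shown to be particular to the Vha genes. Exercised replicate 1 was the highest exercised library for 12 of the 15 and exercised replicate 2 the lowest for 12, while control replicate 1 was the highest control for 10. Counts of the 29 genes together took 0.208, 0.199 and 0.188% of control replicates 1 to 3 and 0.251, 0.218 and 0.230% of exercised replicates 1 to 3.

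**Figure D1:**
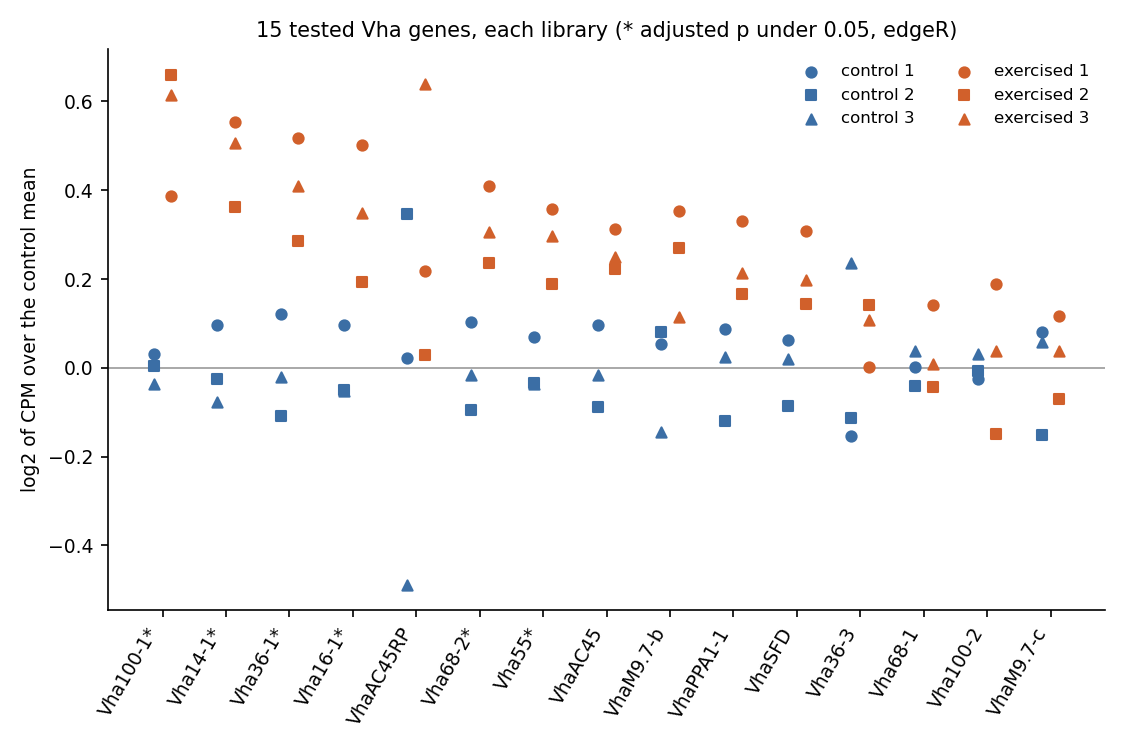
Level of each tested Vha gene in each library, as the log2 of its CPM over the mean of the control libraries, with blue for control, orange for exercised and symbols for replicates 1 to 3. Genes are ordered by log2 fold change, the 6 with an asterisk passed at an adjusted p under 0.05 in edgeR, and for 10 of the 15 all orange points lie above all blue ones.

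The catalytic subunit A, which binds and splits ATP, came from 2 of its 3 genes. Vha68-2 (FBgn0263598, chromosome arm 2L, 12974322 to 12978607 in genome release 6, as all positions here) had 239.1, 208.4 and 220.2 CPM in control replicates 1 to 3, and exercised replicates 1 to 3 had 295.7, 262.2 and 275.3 CPM. The groups did not overlap, and exercised replicate 1 was the highest library. It rose, with a log2 fold change of 0.32 (SE, the standard error, 0.085, edgeR adjusted p = 0.0377). Its paralog Vha68-1 (FBgn0265262, arm 2L, 13000770 to 13004107) had 51.5, 50.0 and 52.7 CPM in the controls, against 56.7, 49.9 and 51.7 CPM in the exercised libraries. These values overlapped, with a log2 fold change of 0.04 (SE 0.078, edgeR adjusted p = 0.779). Vha68-3, which starts just downstream of Vha68-2 on the same strand and is known for its testis expression, had at most 2 counts in any library.

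Subunit B alternates with A in the headpiece and has the single gene Vha55 (FBgn0005671, arm 3R, 12623762 to 12627829). Vha55 had 248.8, 231.6 and 231.2 CPM in the controls, against 304.1, 270.4 and 291.2 CPM in the exercised libraries. No exercised library was as low as any control, and within each group replicate 1 was the highest. Vha55 rose, with a log2 fold change of 0.28 (SE 0.078, edgeR adjusted p = 0.0423), the smallest of the 6 changes that passed.

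Both tested members of the rotor shaft, D and F, that are expressed broadly rose. Vha36-1 (subunit D, FBgn0022097, arm 2R, 15541435 to 15542498) had 55.5, 47.3 and 50.3 CPM in the controls, against 73.0, 62.2 and 67.8 CPM in the exercised libraries, without overlap. Its log2 fold change was 0.41 (SE 0.094, edgeR adjusted p = 0.0225). Vha14-1 (subunit F, FBgn0262512, arm 2R, 15679426 to 15680084) had 38.2, 35.1 and 33.8 CPM in the controls, against 52.4, 45.9 and 50.7 CPM in the exercised libraries. Here too the groups lay apart, and the log2 fold change was 0.48 (SE 0.087, edgeR adjusted p = 0.00921).

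A second D paralog, Vha36-3 (FBgn0040377, chromosome X, 2579091 to 2580560), was classed from general knowledge as restricted in its expression, but these libraries held it at 38.7, 39.8 and 50.7 CPM in the controls against 43.1, 47.5 and 46.4 CPM in the exercised libraries. Its highest value was in control replicate 3, and the groups overlapped. It did not pass, with a log2 fold change of 0.09 (SE 0.12, edgeR adjusted p = 0.664). Vha36-2 and Vha14-2, paralogs of D and F known from testis, had at most 2 counts in any library.

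VhaSFD (subunit H, FBgn0027779, arm 2L, 16722883 to 16727826), which joins V1 to V0 and regulates the enzyme, had 122.1, 110.2 and 118.7 CPM in the controls, against 144.8, 129.2 and 134.2 CPM in the exercised libraries. All exercised values exceeded all control values, but the log2 fold change of 0.22 did not pass (SE 0.081, edgeR adjusted p = 0.105).

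Subunit a of V0, which carries the proton channels and sets where in the cell the pump sits, has 5 genes. Vha100-1 (FBgn0028671, arm 3R, 29131193 to 29137980), known as the neuronal paralog with a role at synaptic vesicles, had 64.5, 63.3 and 61.5 CPM in control replicates 1 to 3. Exercised replicates 1 to 3 had 82.5, 99.7 and 96.7 CPM. The controls lay within a narrow band, all exercised libraries were above it, and exercised replicate 1, the highest exercised library for 12 of the 15 genes, was the lowest here. Its log2 fold change of 0.56 (SE 0.090, edgeR adjusted p = 0.00554) was the largest among the tested Vha genes. Exons of Vha100-1 overlap those of Alg13 on the opposite strand, and the sources used here do not say whether counting used strand. Alg13 was at 2.10 to 2.83 CPM, and the part of reads from that strand in the Vha100-1 counts was not tested.

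Vha100-2 (FBgn0028670, arm 3R, 18390323 to 18399169), the broadly expressed a subunit, had 212.4, 215.2 and 220.9 CPM in the controls, against 246.4, 195.1 and 222.0 CPM in the exercised libraries. Exercised replicate 1 was above and exercised replicate 2 below every control, and the log2 fold change was 0.03 (SE 0.096, edgeR adjusted p = 0.851). The remaining a genes did not pass the filter. Vha100-4, known from the acid-secreting region of the midgut, had 4 counts in control replicate 2, 3 in exercised replicate 3 and 0 elsewhere, and Vha100-3 had 1 count in each control and 0 in exercised libraries.

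Vha16-1 (subunit c, FBgn0262736, arm 2R, 6625242 to 6633090), the proteolipid of the rotor ring, was the most abundant Vha gene. It had 654.0, 591.2 and 589.7 CPM in the controls, against 866.4, 699.6 and 779.4 CPM in the exercised libraries. The groups did not overlap, though the exercised libraries were spread more widely than the controls (SD 83.4 against 36.7 CPM, n = 3 each). It rose, with a log2 fold change of 0.35 (SE 0.096, edgeR adjusted p = 0.0399). Its paralogs Vha16-2, Vha16-3 and Vha16-5 had 0 counts in all 6 libraries, which allows up to 0.0231 CPM over the 6 libraries from counting error alone, and Vha16-4 had 1 count.

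The other V0 genes had smaller differences. VhaPPA1-1 (subunit c'', FBgn0028662, arm 3R, 14902330 to 14904061), the second kind of ring proteolipid, had 98.5, 85.2 and 94.2 CPM in the controls, against 116.5, 104.0 and 107.4 CPM in the exercised libraries. Its groups lay apart, but the difference of 0.24 on the log2 scale did not pass (SE 0.087, edgeR adjusted p = 0.0968). VhaM9.7-b (the small membrane subunit e, FBgn0028663, arm 3L, 21539862 to 21541215) had 48.3, 49.3 and 42.1 CPM in the controls, against 59.5, 56.2 and 50.4 CPM in the exercised libraries. Replicate 3 was the lowest in each group, the groups lay narrowly apart, and the log2 fold change was 0.25 (SE 0.097, edgeR adjusted p = 0.117). VhaM9.7-c, a second e gene, had 13.6, 11.5 and 13.3 CPM in the controls, against 13.9, 12.2 and 13.2 CPM in the exercised libraries, which overlapped, with a log2 fold change of 0.03 (SE 0.11, edgeR adjusted p = 0.882).

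Among accessory proteins of V0, VhaAC45 (FBgn0262515, arm 2R, 9207561 to 9209774), a membrane glycoprotein bound to the pump, had 154.6, 136.1 and 143.0 CPM in the controls, against 179.5, 168.7 and 171.9 CPM in the exercised libraries. Its groups lay apart, and it missed the threshold with a log2 fold change of 0.26 (SE 0.079, edgeR adjusted p = 0.0551). DESeq2 and limma-voom called it higher, with adjusted p of 0.0245 and 0.0499. The related VhaAC45RP had 2.21, 2.77 and 1.55 CPM in the controls, against 2.53, 2.22 and 3.39 CPM in the exercised libraries, which overlapped (log2 fold change 0.32, SE 0.28, edgeR adjusted p = 0.480). ATP6AP2, a second accessory protein that is no member by symbol and was formerly called VhaM8.9, had 104.1, 92.7 and 97.7 CPM in the controls, against 126.2, 114.5 and 121.2 CPM in the exercised libraries. ATP6AP2 rose, with a log2 fold change of 0.30 (SE 0.080, edgeR adjusted p = 0.0381), without overlap of the groups. Like Vha16-1 it passed without exercised replicate 2 but not without any of the other libraries. Both were also lost with upper-quartile factors and with the replicate number as a block (edgeR adjusted p of up to 0.144 for ATP6AP2).

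By sector, 4 of 7 tested V1 genes, 2 of 6 tested V0 genes and 0 of 2 tested accessory genes passed as higher. The summed level of the V1 genes was 378.4, 344.8 and 362.3 CPM per kilobase in control and 470.2, 421.3 and 447.6 CPM per kilobase in exercised libraries. For V0 it was 427.5, 396.5 and 399.2 in control and 535.6, 455.8 and 488.8 CPM per kilobase in exercised libraries. Both sums were higher in every exercised library than in any control, and neither was tested, since a sum over chosen members carries no test. Vha44, Vha26, Vha13 and VhaAC39-1 were not in these sums.

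How firmly the 6 calls stood against the choice of library and method differed between them, over 15 alternative fits. Vha100-1 passed in all 15, with log2 fold changes from 0.50 to 0.64 and adjusted p of at most 0.0333. Vha14-1 passed in 14 and was lost only without exercised replicate 3 (edgeR adjusted p = 0.0555). Vha36-1 passed in 11 and was lost without control replicate 2, control replicate 3, exercised replicate 1 or exercised replicate 3 (adjusted p of 0.0553 to 0.0930). Vha16-1 and Vha68-2 each passed in 8 and Vha55 in 7, and these 3 passed without exercised replicate 2 but not without any of the other 5 libraries, with adjusted p of up to 0.136, 0.132 and 0.164. All 3 were also lost with upper-quartile factors (edgeR adjusted p of 0.069, 0.068 and 0.083) and with the replicate number as a block. Vha55 was lost without a low-count filter too (edgeR adjusted p = 0.0512). All 6 kept a log2 fold change above 0 in every alternative. Without single libraries the number of Vha genes called higher was 1 to 6, with 1 of them left without exercised replicate 3 and all genes called falling from 1714 to 827 in that fit.

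**Figure D2:**
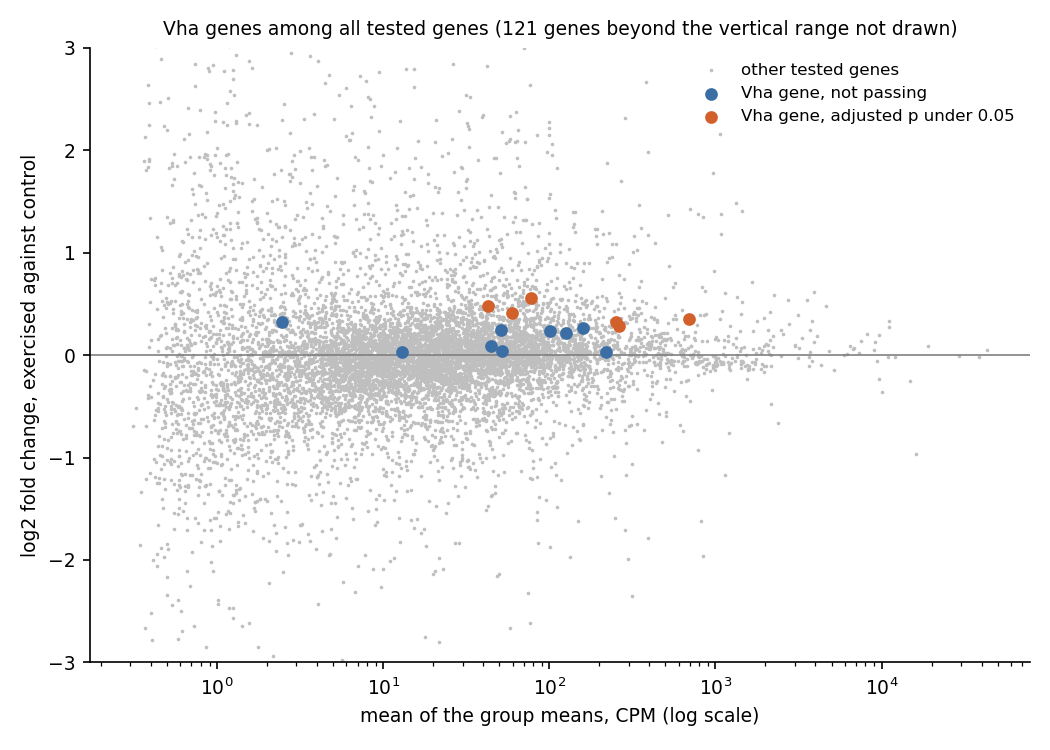
Log2 fold change of exercised against control (vertical axis) by mean CPM of the groups (horizontal axis, log scale) for all tested genes, in gray, with the 15 tested Vha genes in color. The Vha genes lie between 0.03 and 0.56 on the vertical axis (TMM factors), most of them at 40 CPM or more, and the 6 orange points passed at an adjusted p under 0.05. A total of 121 genes beyond the vertical range are not drawn.

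The 29 genes divided at the low-count filter into a tested set and a set below it. Vha16-1 stood above every other member, at 191.7 to 212.6 CPM per kilobase of exon in control libraries. Vha55 followed at 83.0 to 89.3 and Vha68-2 at 75.5 to 86.7 CPM per kilobase in control libraries, ranges that overlapped. VhaAC45 (67.6 to 76.8), VhaPPA1-1 (63.0 to 72.8) and Vha100-2 (65.9 to 68.6 CPM per kilobase) also overlapped each other in control libraries. Vha14-1, Vha36-1, VhaSFD, VhaM9.7-b and Vha36-3 came next, with means over all libraries from 64.8 down to 34.3 CPM per kilobase. Vha100-1, Vha68-1 and VhaM9.7-c had means of 23.7, 19.5 and 15.3 CPM per kilobase, and VhaAC45RP of 1.46. Measured per kilobase of coding sequence, Vha16-1 was still the highest, at 1282 CPM per kilobase in control libraries, but VhaM9.7-b moved to the second place at 174.4, so the order below Vha16-1 depends on the length used.

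The set below the filter held 14 genes, of which 4 had 0 counts in all libraries (Vha16-2, Vha16-3, Vha16-5 and VhaM9.7-d) and 10 had at least 1 count. Among the 29, all 11 genes classed as broadly expressed passed the filter, and 5 of these rose. Of the 9 classed as restricted, Vha100-1 and Vha36-3 passed the filter and Vha100-1 rose. Of the 9 left unclassed, VhaM9.7-c and VhaAC45RP passed the filter and neither rose. The classes come from general knowledge of adult and larval tissues. VhaAC39-2, the only d gene with a row under its current identifier, had 1 count in exercised replicate 1 and 0 in the other libraries. The broadly expressed d gene VhaAC39-1 was not analysed here.

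Within a subunit, the paralogs were compared as the ratio of their CPM per kilobase in the same library, in which library size cancels. For 5 pairs both genes were tested, and with 3 libraries against 3 the exact two-sided permutation test cannot go below p = 0.1, so no pair could pass. In subunit A the ratio of Vha68-2 to Vha68-1 was 4.51, 4.04 and 4.05 in control and 5.06, 5.10 and 5.16 in exercised libraries. The groups lay apart, and the log2 ratio was 0.28 higher in exercised larvae (exact permutation p = 0.1, n = 3 each). Vha68-2 thus supplied 80.2 to 81.9% of subunit A transcripts in control and 83.5 to 83.8% in exercised libraries.

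In subunit a the ratio of the broad Vha100-2 to the restricted Vha100-1 was 3.36, 3.47 and 3.67 in control and 3.05, 2.00 and 2.34 in exercised libraries. The groups lay apart in the other direction, and the log2 ratio differed by -0.53, exercised minus control (exact permutation p = 0.1, the smallest possible, n = 3 each). Vha100-1 made up 22.9, 22.3 and 21.4% of subunit a transcripts in control replicates 1 to 3 and 24.7, 33.3 and 29.9% in exercised replicates 1 to 3. Of the 5 pairs this was the only one in which the less abundant paralog had a larger share in every exercised library than in any control.

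In subunit D the ratio of Vha36-1 to Vha36-3 was 1.74, 1.44 and 1.21 in control and 2.06, 1.59 and 1.78 in exercised libraries. These overlapped, with a difference of 0.31 on the log2 scale (exact permutation p = 0.2, n = 3 each). Vha36-3 held 32.7 to 45.3% of subunit D transcripts, the most even division of any subunit. For subunit e the ratio of VhaM9.7-b to VhaM9.7-c was 2.20 to 2.98 in control and 2.67 to 3.21 in exercised libraries, with overlap and a log2 difference of 0.22 (exact permutation p = 0.2, n = 3 each). The log2 ratio of VhaAC45 to VhaAC45RP differed by -0.07 (exact permutation p = 1, n = 3 each), and its sign turned to 0.15 without control replicate 3 and to 0.11 without exercised replicate 3. Reads that fit several paralogs could shift such ratios, and the sources used here do not say how they were counted.

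**Figure D3:**
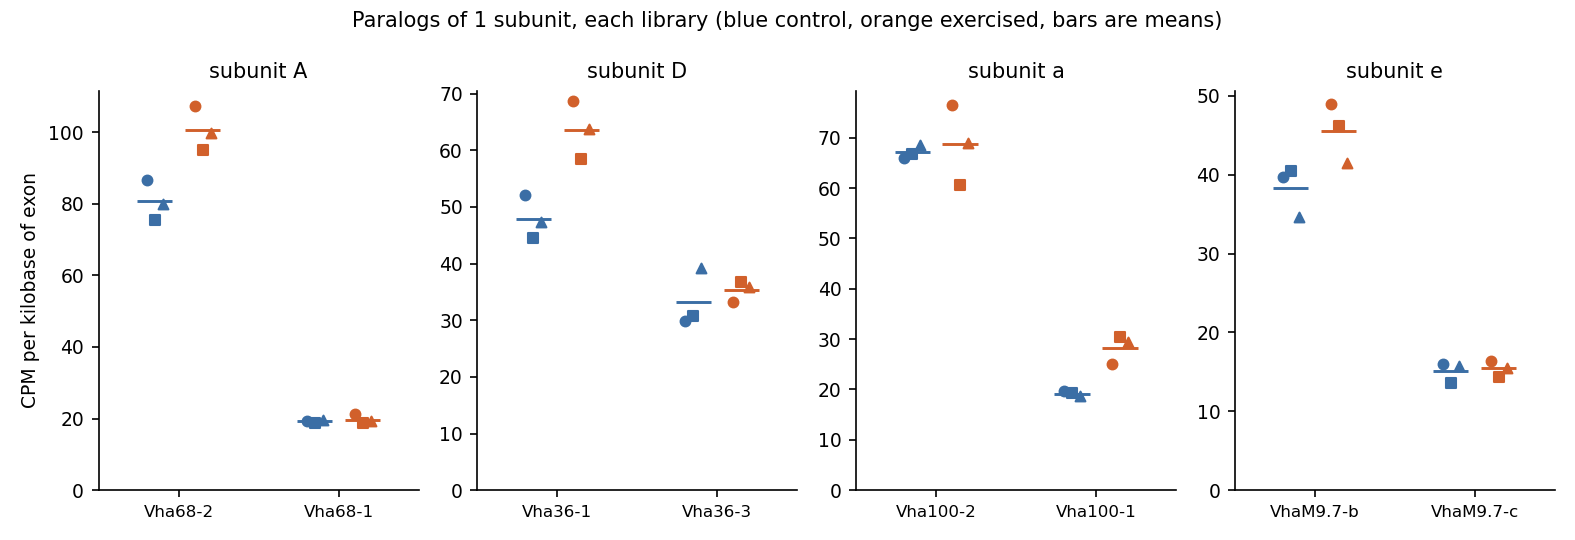
Level of the paralog pairs of subunits A, D, a and e in each library, in CPM per kilobase of exon on axes that start at 0, with blue for control, orange for exercised, circles, squares and triangles for replicates 1 to 3 and bars for group means. Blue and orange points lie apart for Vha68-2, Vha36-1, Vha100-1 and VhaM9.7-b, and they overlap for Vha68-1, Vha36-3, Vha100-2 and VhaM9.7-c.

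In subunits c, c'' and F nearly all transcripts came from 1 gene in every library. The lowest share in any library was 99.97% of c for Vha16-1, 99.89% of F for Vha14-1 and 99.78% of c'' for VhaPPA1-1. VhaAC45 supplied 97.6 to 98.7% of the Ac45 transcripts.

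Of the genes below the filter, Vha100-5, an a subunit paralog (FBgn0032373, arm 2L, 11738948 to 11744524), had the highest mean level. It had 21, 27 and 1 counts in control replicates 1 to 3 and 2, 4 and 1 counts in exercised replicates 1 to 3. Control replicates 1 and 2 stood above the rest, and control replicate 3 was as low as the exercised libraries. It passed the filter when control replicate 3 was left out, through the 2 controls in which it was high. That fit called it lower (edgeR log2 fold change -3.13), but with its low control left out the direction was fixed in advance. The call is therefore no test of a group difference. The Malpighian tubule marker Uro had the same division, with 2.83, 2.12 and 0.0457 CPM in the controls against 0, 0 and 0.0929 CPM in the exercised libraries. The other tubule markers did not all share it. Irk3 was lower in control replicate 3, at 2.15 CPM, than in control replicates 1 and 2, at 11.6 and 8.76 CPM, but Best2 had 53.7, 46.1 and 52.3 CPM and salm 11.87, 13.42 and 11.96 CPM in the controls. Of the 4 tubule markers 3 were tested and 1, Best2, fell, with summed levels of 66.5 to 80.0 CPM in control and 42.4 to 52.7 CPM in exercised libraries, and the part of tubule tissue in the Vha100-5 counts was not tested. VhaM9.7-a, an e gene, had 8, 9 and 2 counts in control and 12, 0 and 10 in exercised libraries, without a division by group.

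Markers of other tissues were measured beside the Vha genes that rose. Of 5 tested neuron markers, Syx1A, a syntaxin of synaptic membranes, was higher in exercised larvae, with 64.6, 62.6 and 61.4 CPM in the controls against 72.6, 105.2 and 92.1 CPM in the exercised libraries (log2 fold change 0.52, SE 0.13, edgeR adjusted p = 0.0312). Its order among the exercised libraries was that of Vha100-1. Syx1A passed without exercised replicate 1 but was lost without any of the other 5 libraries and with the replicate number as a block (edgeR adjusted p of up to 0.103). The other 4 neuron markers did not pass and had log2 fold changes below 0, among them elav, a neuronal RNA-binding protein, at -0.11 (edgeR adjusted p = 0.448). Summed neuron markers were at 101.5 to 111.0 CPM in control and 103.5 to 140.0 CPM in exercised libraries, and none of the 5 was at 0. Syx1A made up most of this sum in every library, and the other 4 had lower means in exercised than in control libraries. The part of neuronal RNA in the result for Vha100-1 was not tested.

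Of 3 tested trachea markers, serp, a chitin deacetylase of the tracheal lumen, rose, with 1126, 1011 and 1111 CPM in the controls against 1820, 1342 and 1651 CPM in the exercised libraries (log2 fold change 0.57, SE 0.12, edgeR adjusted p = 0.0139). The summed trachea markers were at 2672 to 2930 CPM in control and 3185 to 4346 CPM in exercised libraries. Nearly all of this sum was serp and verm, since trh was at 10.3 to 14.3 CPM. From the highest, the order of the sum was exercised replicates 1, 3 and 2, as in Vha16-1, Vha68-2, Vha55, Vha36-1 and Vha14-1. This order was not particular to Vha genes that rose. Vha68-1, Vha100-2, VhaM9.7-c, VhaPPA1-1, VhaSFD and VhaAC45, which did not pass, had it too. The share of all tested genes with this order was not counted. The call of serp was lost without control replicate 2 or exercised replicate 3 (edgeR adjusted p of up to 0.0683). The trachea regulator trh did not pass, at a log2 fold change of -0.17 (edgeR adjusted p = 0.383). The part of tracheal RNA in the results for the 5 genes that rose was not tested. The fat body markers Lsp1alpha, Lsp1beta and apolpp were high in control replicate 3 and in all exercised libraries. The fat body markers Lsp2 and Fbp1 were at 11.4 and 0.0913 CPM in control replicate 3. In exercised libraries Lsp2 was at 21.4 to 34.6 CPM and Fbp1 at 1.67 to 9.02 CPM. The part of fat body RNA in the results for the Vha genes was not tested.

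**Figure D4:**
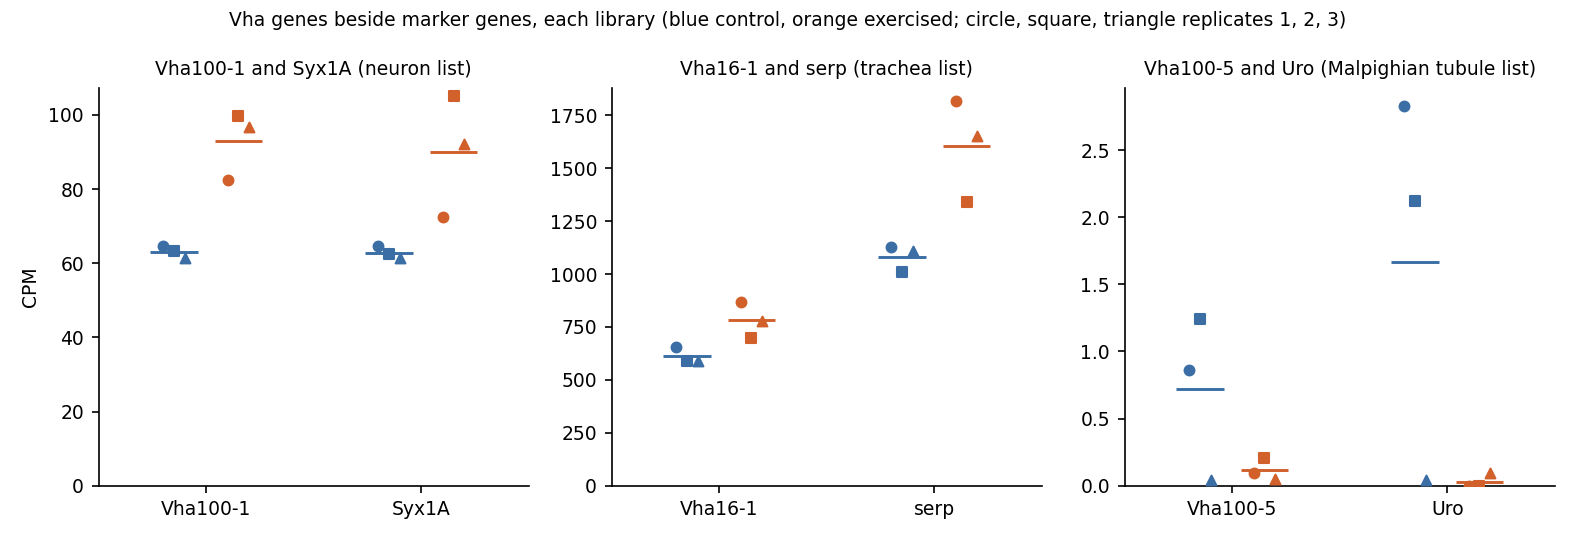
CPM of 3 Vha genes beside a marker gene in each library, on axes that start at 0, with blue for control, orange for exercised, circles, squares and triangles for replicates 1 to 3 and bars for group means. Vha100-1 and Syx1A were lowest of the exercised libraries in replicate 1, and Vha16-1 and serp were highest there. The neuron markers elav, nSyb, brp and Syt1 (not drawn) had log2 fold changes below 0. The trachea markers trh and verm (not drawn) had log2 fold changes of -0.17 and 0.36. Vha100-5 and Uro were highest in control replicates 1 and 2, a division that the tubule markers Best2 and salm (not drawn) lacked.

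Of the remaining marker lists, muscle (6 tested), glia (4 tested), midgut (1 tested) and testis and germ line (1 tested) had no member that passed in edgeR, DESeq2 or limma-voom, and at an unadjusted p under 0.05 only repo of the glia, lower, was counted. Epidermal markers had 2 higher and 1 lower of 4 tested, hemocyte markers 1 higher of 4 tested and fat body markers 1 higher of 5 tested. Midgut markers summed to 0.414 to 0.812 CPM over all libraries, with Jon99Cii at 0 in all 6, and testis and germ line markers to 1.55 to 3.28 CPM. The Vha genes known from those tissues were at or near 0 in the same libraries.

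Genes that act with the pump were measured as 3 lists. Of 8 genes for assembly and regulation of the V-ATPase, 7 were tested, 0 were higher and 1 was lower in edgeR (10.3% and 8.52% of all tested genes), with the same counts at an unadjusted p under 0.05 and in DESeq2 and limma-voom. The gene that fell was sky, a synaptic GTPase-activating protein with a TLDc domain, from a mean of 13.6 CPM in control to 4.30 CPM in exercised libraries (log2 fold change -1.66, SE 0.20, edgeR adjusted p = 0.00177). Rbcn-3B, a subunit of the rabconnectin complex that assembles V1 onto V0, had a log2 fold change of 0.18 (edgeR adjusted p = 0.205), and mtd one of 0.12 (edgeR adjusted p = 0.400). The median log2 fold change of the 7 was -0.02, as it was over all tested genes.

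Of 30 listed lysosome genes 23 had a row in the count table and 20 were tested. Of these 20 lysosome genes, 2 were higher and 3 lower in edgeR, near the 10.3% and 8.52% of all tested genes. Their median log2 fold change was -0.04. Limma-voom gave the same counts, and DESeq2 called 2 higher and 4 lower. The lysosomal permease spin rose by 0.75 on the log2 scale (SE 0.13, edgeR adjusted p = 0.00758). The protease genes CtsL1 and CtsB (cathepsins L and B) fell by 0.67 and 0.36 on the log2 scale (edgeR adjusted p = 0.0153 and 0.0192). The other calls, named after their values were seen, were car, of the complex that tethers vesicles to lysosomes, which rose by 0.36 (edgeR adjusted p = 0.0247), and the hexosaminidase gene Hexo1, which fell by 0.29 (edgeR adjusted p = 0.0449). Of these 5, only spin passed in all 15 alternatives. The calls of CtsL1, CtsB and car were lost without exercised replicate 3, and those of CtsB and car also without control replicate 1 or exercised replicate 1. That of car was lost also without control replicate 2, and that of Hexo1 without any single library. With the replicate number as a block CtsB, car and Hexo1 were lost too. Hexo1 was also lost without a low-count filter and without the 20 most abundant genes. Over the alternatives the edgeR adjusted p was up to 0.0687 for CtsL1, 0.0914 for CtsB, 0.0874 for car and 0.125 for Hexo1.

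TORC1, the kinase complex that senses amino acids on the lysosome surface and binds its regulators there together with the V-ATPase, made up the last list. Of 25 listed genes 19 had a row in the count table and 18 were tested, and the kinase gene Tor was not among these. Of the 18, 0 were higher and 3 lower in edgeR, in DESeq2 and in limma-voom. In edgeR 10.3% of all tested genes were higher and 8.52% lower. At an unadjusted p under 0.05, 0 were higher and 7 lower, where 17% of all tested genes were higher and 16.2% lower. Their median log2 fold change was -0.15, and 2 of 18 were above 0, where 47.9% of all tested genes were. Sesn, the stress-induced sestrin that restrains TORC1, fell by 1.18 in log2 (SE 0.23, edgeR adjusted p = 0.0163). The GATOR2 component mio fell by 0.88 and the GATOR1 component Iml1 by 0.43 (edgeR adjusted p = 0.0135 and 0.0242). All 3 calls were lost without exercised replicate 3, that of Sesn also without exercised replicate 1 or 2 and that of Iml1 also without control replicate 1 or 2 or exercised replicate 1, with edgeR adjusted p of up to 0.0729 for Sesn, 0.0604 for mio and 0.101 for Iml1 over the alternatives.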

How the data were processed

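Body wall muscle and cuticle of 3 control and 3 exercised groups of larvae had been sequenced as polyA-selected RNA. The authors ran FastQC on the reads, mapped these with STAR to the release 6 assembly and used featureCounts, and the deposited values are raw counts per gene. The sources used here do not give tool versions, the annotation release, strandedness or how multi-mapping reads were treated. The study's own test was DESeq2. Replicates are called independent by the study.

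Symbols and exon lengths came from the Ensembl annotation of release 6 for 17200 identifiers and from a supplementary table of the study for 5, and 272 had none. The counts were tested with edgeR 4.0.16 in R 4.3.3: filterByExpr, TMM factors (0.975 to 1.06), glmQLFit with robust=TRUE and glmQLFTest with condition as the only term, and Benjamini and Hochberg adjustment over 9127 genes, with a threshold of 0.05. The common biological coefficient of variation was 0.181. CPM per kilobase uses the union of a gene's exons. Upper limits rest on 3 counts and cover counting error only. Paralog ratios were tested by exact permutation. Alternatives were DESeq2 1.42.0, limma-voom (limma 3.58.1), RLE and upper-quartile factors, no filter or one asking for 1 CPM in all libraries, a fit minus the 20 most abundant genes, robust=FALSE, a block for the replicate number and each library left out. For ratios they were 0.5 counts added, coding length and each library left out. The fit was tested on simulated data, and no library was a duplicate of another.

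Members, classes and lists were chosen with earlier results of these data known. Values in every library were given for each Vha gene that passed and for the most abundant paralog of each subunit, and for other Vha genes that averaged 1 CPM or more. Up to 3 genes of each pathway list were named by smallest adjusted p, with their fold changes and not with values in every library. No sequences were used.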

Additional observations from a re-analysis of the deposited data

How the results depend on the processing

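Against 6 in the main result, the number of Vha genes called higher was 7 with DESeq2 and with limma-voom, 5 without a low-count filter, 3 with upper-quartile factors and 3 with the replicate number as a block, and it was 1 to 6 when single libraries were left out. The number called lower was 0 in all alternatives other than the fit without control replicate 3, where it was 1 (Vha100-5), so that leaving out single libraries gave 0 to 1. That call is no test, since the fit left out the control in which Vha100-5 was low. All genes called numbered 1714 in the main result, 1064 with the replicate block and 827 to 1780 without single libraries. Upper-quartile factors lowered the median log2 fold change by 0.05 and moved the share of calls that were higher from 54.6% to 43.5%. Under upper-quartile factors the log2 fold change turned to -0.021 for Vha100-2, -0.016 for Vha68-1 and -0.023 for VhaM9.7-c. Without single libraries it lay between -0.050 and 0.12 for Vha100-2, -0.015 and 0.078 for Vha68-1 and -0.035 and 0.080 for VhaM9.7-c, lower than 0 without exercised replicate 1 and, for VhaM9.7-c, control replicate 2. None of these 3 passed in any fit. The log2 ratio of VhaAC45 to VhaAC45RP lay between -0.31 and 0.15 without single libraries. Same-numbered libraries did not deviate together (correlations -0.22, 0.003 and -0.24), and control replicate 1 with exercised replicate 3 had the largest correlation, 0.29. The sources used here do not say how the replicates were numbered, and such correlations cannot show whether libraries were prepared in pairs. Among the 6 Vha genes that passed, Vha100-1, Vha14-1 and Vha36-1 passed with the replicate block. The cause of these changes was not tested, other than that fits without a library have fewer samples. With 3 libraries per group, Vha differences of 0.2 to 0.3 on the log2 scale lay at the edge of what passed.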
